A study of Rattus norvegicus with 8 samples.

Results

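The genes described here carry out the breakdown of haem and the handling of the iron that it releases: the haem oxygenases Hmox1 and Hmox2, the biliverdin reductases Blvra and Blvrb, the ferritin subunits Fth1 and Ftl1, the transferrin receptor Tfrc, the iron exporter Slc40a1, the hormone Hamp and the haem synthesis enzyme Alas1. They were taken as every probe set of the array whose platform gene symbol is, or among several symbols includes, 1 of these 10 listed genes. The rule found 12 of the 15866 probe sets, which read 9 of the listed genes, among 10413 genes named on the array. Blvrb is not read under its symbol on this array. The Fth1 probe set also carries the symbol of a ferritin heavy chain pseudogene, and the Ftl1 probe set those of 4 other ferritin light chain loci, so neither signal was resolved between its loci. All 12 probe sets passed the filter on dim probe sets, a mean signal of about 118.

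Hepatocytes, which carry out most of the metabolism of the liver, were isolated from 4 rats by enzymatic perfusion and plated on collagen. The treated cultures, 1 from each rat, were exposed for 3 h to 4 µM cadmium chloride, which delivers the toxic heavy metal as a soluble salt. The control cultures, 1 from each of the same rats, received culture medium alone. The labels name no strain, sex or age, and all cultures had spent a night without serum albumin before the exposure. Each of the 8 RNA samples, 4 cadmium and 4 control, was read on 1 Affymetrix RAE230A array.

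Haem oxygenase opens the haem ring and yields biliverdin, carbon monoxide and ferrous iron. Hmox1 is the inducible form, known to respond to metals, haem and oxidants, and Hmox2 is the constitutive one. Biliverdin reductase then makes bilirubin, while the iron is stored in ferritin or leaves the cell through ferroportin, the product of Slc40a1. Hepcidin, the product of Hamp, is made mainly by hepatocytes and causes ferroportin to be degraded. Iron regulatory proteins control ferritin and transferrin receptor mainly through their mRNAs, ferritin at translation, which an array does not read, and the transferrin receptor at mRNA stability. Haem is known to repress Alas1, the first and rate-limiting enzyme of its own synthesis in liver.

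Promoter windows from RefSeq (build GRCr8) matched 7 of the 10 listed genes, in 8 windows, since Hmox2 has a pair of start sites there. Hmox1, Fth1 and Ftl1 had no window and were not searched for any motif below. The 250 bases before the start are printed for Alas1, which rose with cadmium, and for Hamp, which differed most between rats, each 5′ to 3′ on the minus strand. Capitals mark the core of nuclear respiratory factor 1 (any base at the fifth position), a known activator of Alas1, in the first, and the BMP response element core GGCGCC and the STAT element TTCNNNGAA, both known routes of hepcidin control, in the second.
Alas1, chr8:115768643-115768892: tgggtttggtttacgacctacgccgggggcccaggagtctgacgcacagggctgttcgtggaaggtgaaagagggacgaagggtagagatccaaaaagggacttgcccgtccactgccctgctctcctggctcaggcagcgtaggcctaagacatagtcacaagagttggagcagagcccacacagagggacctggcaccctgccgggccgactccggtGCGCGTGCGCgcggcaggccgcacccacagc
Hamp, chr1:95300272-95300521: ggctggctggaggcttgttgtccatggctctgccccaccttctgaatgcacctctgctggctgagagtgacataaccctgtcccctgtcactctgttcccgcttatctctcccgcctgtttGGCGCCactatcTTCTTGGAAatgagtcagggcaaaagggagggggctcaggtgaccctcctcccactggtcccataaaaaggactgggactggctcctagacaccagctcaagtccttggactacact
Searched on both strands of all 33469 windows of this length, the first core was found in 3.75%, the BMP core in 8.70% and the STAT element in 7.67%. The nuclear respiratory factor match in Alas1 lay 31 to 22 bases before the start and overlapped a match to the metal response element core TGCNCNC (26 to 20 bases before), a motif found in 43.4% of windows. The loose metal pattern also had matches before Tfrc, Hmox2, Slc40a1 and Blvrb, so it was not particular to Alas1. The overlapping Alas1 match and those before Tfrc and Hmox2 had G as the fourth base. Those before Slc40a1 and Blvrb had T or C there and so are not matches to the core itself. In Hamp the BMP core lay 129 to 124 and the STAT element 117 to 109 bases before the start. The BMP core also had a match before Tfrc (118 to 113 bases), and the STAT element before Hmox2 (140 to 132 bases). The antioxidant response element core TGACNNNGC, which occurs in 10.1% of windows, was found before Hmox2 (95 to 87 bases) and before Blvra (145 to 137 bases). The heat shock element cores GAANNTTC and TTCNNGAA, found in 7.23% and 7.48% of windows, had no match in the 8 windows. Alas1 held a further match to the metal response element core (131 to 125 bases before the start) and 1 to the STAT element (196 to 188), neither in capitals here.

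The cultures had the markers of their labelled cell type: all 9 hepatocyte markers were above the filter and none passed the test for cadmium. Of these, Tat came closest, higher in 4 of 4 rats (log2 change 0.55 ± 0.16; limma adjusted p = 0.0863). Their summed signal lay between 115544 and 137245 in cadmium cultures and between 114903 and 130710 in controls. Some markers of other cells were also above the filter, none past the test. The bile duct marker Epcam averaged 2110 after cadmium and 2213 in controls. Of the stellate cell or fibroblast markers, Acta2 averaged 360 and 341, and Col1a1 192 and 154. The endothelial, blood and lymphocyte markers on the array were all below the filter. Macrophages of the liver, the Kupffer cells, also express Hmox1 and Slc40a1. Of 12 macrophage markers 6 were on the array and 3 (Cd68, Lyz2, Csf1r) were above the filter, with sums of 1410 to 3663 after cadmium and 1587 to 3203 in controls and no gene past the test, while Clec4f, C1qa and C1qb were below the filter on average and Cd163 is not read under its symbol here. Over the whole array 490 of 9519 probe sets (5.15%) changed at a limma adjusted p under 0.05 with the rat as a block, 272 higher (2.86%) and 218 lower (2.29%); that split moved to 366 and 119 when each array was centred on its median. The array median was 184 ± 2.88 after cadmium and 194 ± 2.40 in controls (mean ± SD, n = 4 each; exact permutation p = 0.0286, the smallest that the 70 assignments allow). All cadmium arrays were run on module 2 and all control arrays on module 1 of 1 fluidics station, so module and cadmium cannot be told apart. The ratio of 3′ to 5′ probe sets of Gapdh, a sign of RNA quality, lay between 0.972 and 1.12 after cadmium and between 0.958 and 1.06 in controls (exact permutation p = 0.257). That of beta-actin was higher, between 1.43 and 1.63 after cadmium and between 1.38 and 1.79 in controls (exact permutation p = 0.629). In cultures of mixed cells, fewer cells of a type and less RNA per cell cannot be told apart.

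Of the 12 probe sets, 2 were higher after cadmium and none was lower: Hmox1 and Alas1, which stand at the breakdown end and at the entry of the haem pathway. At an unadjusted p under 0.05, 3 were higher and 1 lower in the same limma fit, against 7.42% higher and 13.0% lower over all 9519 probe sets. The counts at the adjusted threshold were also 2 and 0 without the block for the rat, a fit in which 3.53% of all probe sets passed. The median log2 change of the 12 was 0.10, against -0.06 over all tested probe sets. Hmox1 and Alas1 were also the members whose cadmium and control arrays did not overlap, a separation seen upward in 4.33% and downward in 7.22% of all tested probe sets. Probe sets of ferritin, transferrin receptor, ferroportin, hepcidin, Hmox2 and biliverdin reductase did not pass.

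**Figure D1:**
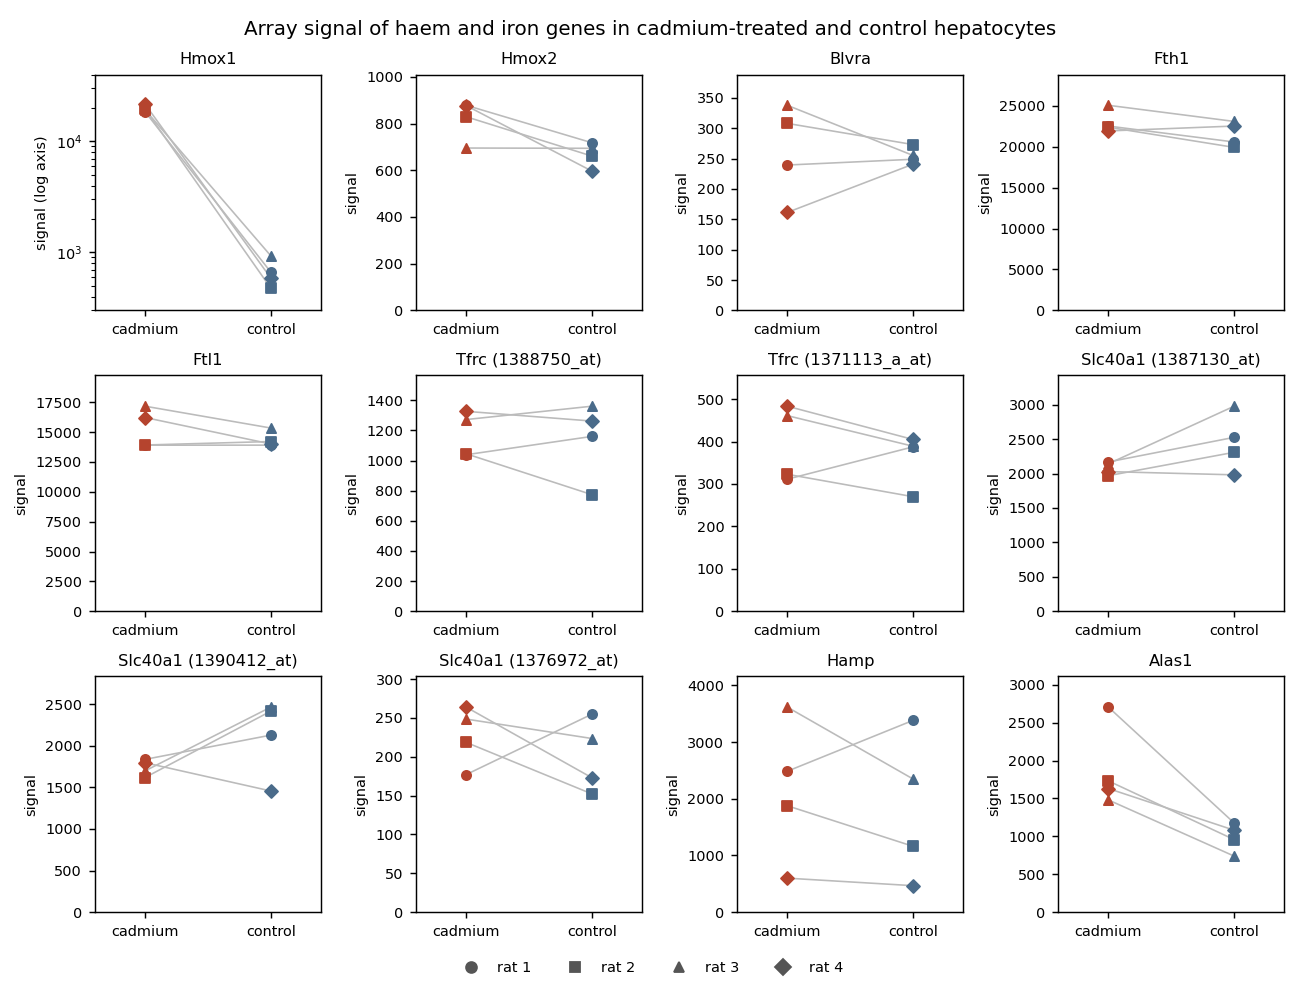
Array signal of each probe set (linear axis from 0, log axis for Hmox1) in cadmium (left, red) and control (right, blue) cultures; a marker shape is a rat and a grey line joins the cultures of 1 rat. Hmox1 and Alas1 are higher in all cadmium cultures than in any control culture, and Hamp runs from 600 to 3616 in cadmium cultures and from 467 to 3381 in controls; where a gene has several probe sets, the brighter comes first.

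Hmox1 had a signal of 18492, 19534, 19243 and 21613 in the cadmium cultures of rats 1 to 4, against 663, 475, 930 and 586 in their control cultures. The lowest cadmium value was far above the highest control value. The log2 change was 4.93 ± 0.15 (SE; 95% interval 4.60 to 5.27; limma adjusted p = 2.83e-07), a 30.5-fold rise that ranked 6th of 9519 probe sets. The difference in spread was not tested: the coefficient of variation was 6.78% after cadmium and 29.2% in controls, and the highest rat exceeded the lowest by 1.17-fold after cadmium and by 1.96-fold in controls. The log2 change by rat ran from 4.37 in rat 3, which had the highest control signal, to 5.36 in rat 2, which had the lowest. As each change is taken against the control of the same rat, this order largely follows from the control values themselves. Fitted on rats 3 and 4 alone, whose arrays came from chip lot 1, the log2 change was 4.79 (adjusted p = 0.000335). Rats 1 and 2, on chip lot 2, gave 5.08 (adjusted p = 6.12e-09).

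Hmox2, the constitutive enzyme, had 878, 829, 695 and 877 after cadmium in rats 1 to 4, against 718, 661, 694 and 596 in controls. The groups overlapped through rat 3, whose cultures were nearly equal (log2 change 0.0025). The log2 change of 0.29 ± 0.11 did not pass (95% interval 0.03 to 0.55; limma adjusted p = 0.193). A probe set named for the pseudogene Hmox2-ps1, which is no member, was dim, at 95.2 ± 20.6 after cadmium and 118 ± 25.2 in controls (mean ± SD, n = 4 each).

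Blvra, which reduces biliverdin to bilirubin, had 239, 308, 338 and 161 in cadmium cultures of rats 1 to 4, against 249, 273, 255 and 241 in control cultures. Rats 2 and 3 were higher with cadmium and rats 1 and 4 lower, and the coefficient of variation was 30.0% after cadmium and 5.39% in controls, a difference not tested. Its log2 change was -0.01 ± 0.18 (95% interval -0.42 to 0.40; limma adjusted p = 0.977).

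The ferritin subunits, whose shell of heavy and light chains stores iron, were bright in both groups, and neither passed. The Fth1 probe set had 22516, 22376, 25053 and 21922 after cadmium in rats 1 to 4, against 20571, 19913, 23083 and 22517 in controls. The groups overlapped, and rat 4 alone was lower with cadmium. Its log2 change was 0.09 ± 0.06 (95% interval -0.05 to 0.24; adjusted p = 0.444). For the Ftl1 probe set the signals were 13906, 13922, 17171 and 16223 in cadmium cultures, against 13910, 14213, 15344 and 14008 in control cultures. Rats 3 and 4 were higher with cadmium, rats 1 and 2 were not, and the groups overlapped. Its log2 change was 0.09 ± 0.07 (95% interval -0.07 to 0.24; limma adjusted p = 0.531), so that for both subunits the upper bound at 3 h was 0.24 in this fit. The estimates moved with the scaling of the arrays. With each array centred on its median they were 0.17 for Fth1 and 0.16 for Ftl1, and with quantile normalization 0.053 and -0.0062, none past the threshold.

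Transferrin receptor, which brings iron into the cell, was read by a bright and a dim probe set and neither passed. The brighter had 1038, 1045, 1272 and 1326 after cadmium in rats 1 to 4, against 1160, 774, 1360 and 1262 in controls. The groups overlapped, and rats 2 and 4 were higher with cadmium while rats 1 and 3 were lower. The log2 change was 0.06 ± 0.12 on this probe set (95% interval -0.20 to 0.32; limma adjusted p = 0.806) and 0.11 ± 0.14 on the dimmer one (95% interval -0.21 to 0.43; limma adjusted p = 0.709). On the dimmer one the cadmium cultures lay between 311 and 483 and the control cultures between 270 and 405.

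Ferroportin was read by 3 probe sets, and they did not point one way. On the brightest Slc40a1 probe set the signals were 2168, 1969, 2141 and 2028 in cadmium cultures, against 2525, 2308, 2978 and 1981 in control cultures of rats 1 to 4. Rats 1 to 3 were lower with cadmium and rat 4 was slightly higher, and the log2 change was -0.22 ± 0.10 (95% interval -0.44 to -0.002; limma adjusted p = 0.240). The second brightest had 1835, 1617, 1697 and 1795 after cadmium, against 2127, 2414, 2463 and 1456 in controls. Again rats 1 to 3 were lower and rat 4 higher, with a log2 change of -0.26 ± 0.14 (limma adjusted p = 0.359). Without rat 4 this probe set passed, with a log2 change of -0.44 (limma adjusted p = 0.0240), and the brightest had -0.31 (adjusted p = 0.0637). The third and dimmest lay between 177 and 264 after cadmium and between 152 and 255 in controls, with a log2 change of 0.19 ± 0.21 (limma adjusted p = 0.665). On both bright probe sets the cadmium cultures were closer together than the controls, with coefficients of variation of 4.53% and 5.65% after cadmium and 17.1% and 21.9% in controls. The difference in spread was not tested, and rat 4 was the lowest control on both (1981 and 1456). Both probe sets read the same RNA samples.

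Hepcidin differed between rats and did not pass for cadmium. Hamp had 2485, 1877, 3616 and 600 in cadmium cultures of rats 1 to 4, against 3381, 1162, 2349 and 467 in control cultures. Rats 1 and 3 held the highest pair of values in each group, rat 2 the third and rat 4 the lowest, and the highest rat exceeded the lowest by 6.03-fold after cadmium and by 7.23-fold in controls. The difference between rats passed the moderated F test of limma (adjusted p = 0.00341), which 167 of 9519 probe sets (1.75%) passed and no other member did. Both arrays of a rat were scanned on a day of their own, so rat and scan day cannot be told apart. The log2 change with cadmium was 0.31 ± 0.17 (95% interval -0.09 to 0.70; limma adjusted p = 0.364), higher in rats 2, 3 and 4 by 0.69, 0.62 and 0.36 and lower in rat 1 by 0.44. Without rat 1 it was 0.56 (limma adjusted p = 0.0571). Among the 9 hepatocyte markers and the 3 macrophage markers above the filter, 1 of each passed the same test between rats, and both are named after their values were seen. Cyp2c11, a hepatocyte cytochrome, had 5987, 5175, 4579 and 1027 after cadmium, against 4449, 5148, 4454 and 1922 in controls, lowest in rat 4 (limma adjusted p = 0.0162). Cd68, a macrophage marker, had 708, 1013, 2152 and 2891 after cadmium, against 736, 958, 1704 and 2380 in controls, highest in rat 4 (limma adjusted p = 0.000638). The control signals of other hepatocyte markers varied in order: Alb and Cps1 were highest in rat 4, and Apoa1 and Ttr lowest. After cadmium, rat 4 was the lowest for each of the 9 hepatocyte markers except Alb. Their part in the Hamp values was not tested.

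Alas1 had 2705, 1731, 1480 and 1631 after cadmium in rats 1 to 4, against 1177, 957, 740 and 1081 in controls. Every cadmium culture was above every control culture, and rat 1 was the highest in both groups. The log2 change was 0.91 ± 0.11 (95% interval 0.66 to 1.17; limma adjusted p = 0.00236), a 1.88-fold rise that ranked 151st of 9519. By rat it was 1.20, 0.85, 1.00 and 0.59. Without the block for the rat the adjusted p was 0.0324, and in that fit the call ended when control replicate 2, 3 or 4 or cadmium replicate 1 or 2 was left out (adjusted p up to 0.0927). Leaving out a whole rat in the blocked fit kept the log2 change between 0.82 and 1.02, with an adjusted p of at most 0.0223. With the 2 rats of chip lot 1 alone it was 0.80 (adjusted p = 0.160), and with the 2 rats of chip lot 2 it was 1.03 (adjusted p = 0.00137).

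**Figure D2:**
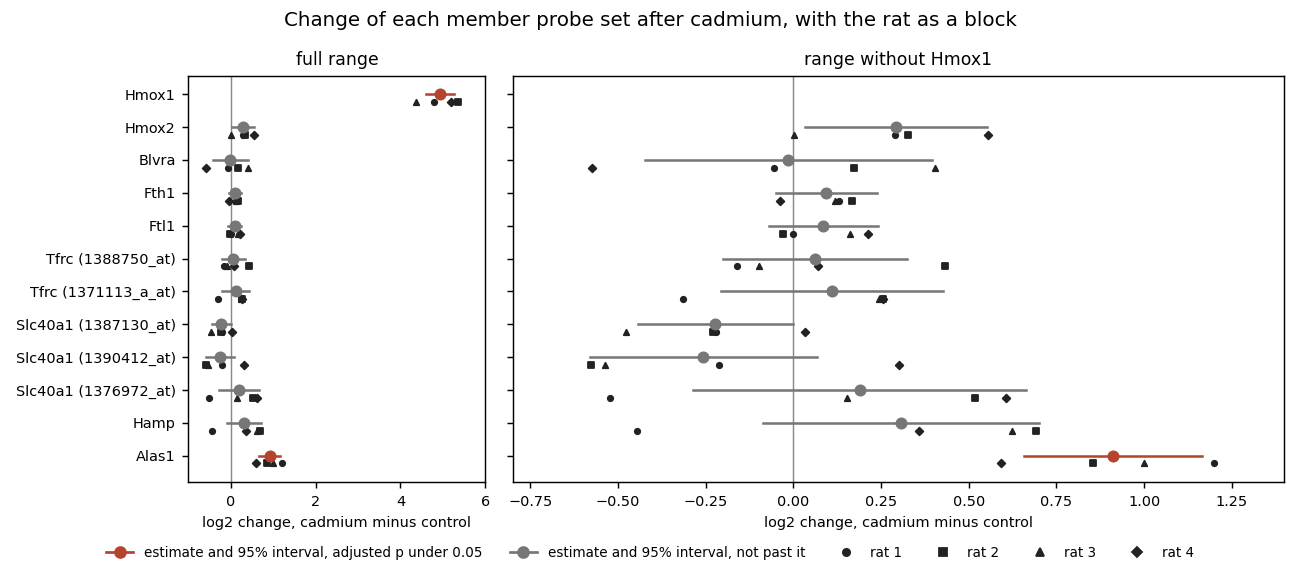
Log2 change (cadmium minus control) of each probe set from the fit with the rat as a block, with its 95% interval, over the full range (left) and enlarged (right); small marks below are the 4 rats. Hmox1 (4.93) and Alas1 (0.91) are the red points past the adjusted threshold, and the grey intervals of Fth1 and Ftl1 are the narrowest.

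No other gene of haem synthesis passed. Of 10 listed, 6 were tested and none passed in either direction in the limma fits with and without the block. None passed at an unadjusted p under 0.05 either, and their median log2 change was -0.09. Over all tested probe sets 5.15% passed with the block, and at an unadjusted p under 0.05 7.42% were higher and 13.0% lower. A list of 6 is too short for an absence of calls to set it apart. Of the brightest, Urod, which decarboxylates uroporphyrinogen, averaged 1447 ± 88.5 after cadmium and 1527 ± 133 in controls (mean ± SD, n = 4 each; log2 change -0.08 ± 0.08; limma adjusted p = 0.651). Alad, which joins the product of Alas1 into porphobilinogen and is known as a target of lead, averaged 939 ± 234 after cadmium and 1080 ± 217 in controls (log2 change -0.21 ± 0.14; limma adjusted p = 0.448). Alas2, the erythroid form, was below the filter.

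None of the 9 tested genes of haem transport and scavenging passed either, at the adjusted or at an unadjusted p under 0.05 in either limma fit, with a median of 0.005. With the block, 5.15% of all tested probe sets passed the adjusted threshold. At the unadjusted one 7.42% were higher and 13.0% lower. Haptoglobin and hemopexin, are the plasma proteins that bind haemoglobin and haem. Hp averaged 25817 ± 2804 after cadmium and 25175 ± 1650 in controls (log2 change 0.03 ± 0.06; limma adjusted p = 0.810), and Hpx 22258 ± 2070 after cadmium and 22416 ± 894 in controls (-0.01 ± 0.07; limma adjusted p = 0.932).

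Among the electron donor of haem oxygenase and the genes of bilirubin disposal, 1 of 8 tested passed as lower and none as higher. Over all tested probe sets 2.29% passed as lower and 2.86% as higher. At an unadjusted p under 0.05, 2 of 8 were lower and 0 higher, against the shares of 13.0% and 7.42% over all probe sets. The gene was Abcc3, an export pump of conjugated bilirubin, with 47.2, 42.0, 250.5 and 62.9 in cadmium cultures of rats 1 to 4, against 324, 231, 312 and 309 in control cultures. Rat 3 had almost no fall (log2 change -0.31, against -2.28 to -2.75 in the others), and 3 of the cadmium values lay in the dim range below 118, so that the gene was above the filter only through its controls and the size of the difference is not settled. The fitted log2 change was -1.94 ± 0.37 (limma adjusted p = 0.0220), and -1.53 with a pseudocount of 32. Without the block the adjusted p was 0.0502, and without rat 1 or rat 2 it was 0.0981 or 0.113.

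Genes that control haem oxygenase transcription held 3 of the 6 calls outside the members, 2 higher and 1 lower of 7 tested. Over all tested probe sets the shares were 2.86% higher and 2.29% lower. At an unadjusted p under 0.05 in the limma fit, 3 of the 7 were higher and 1 lower, against 7.42% and 13.0% over all probe sets. NRF2, the product of Nfe2l2, activates Hmox1 as a dimer with a small MAF protein. Mafk had 1762, 1819, 1262 and 1678 after cadmium in rats 1 to 4, against 881, 633, 650 and 606 in controls. The groups did not overlap, and the log2 change was 1.24 ± 0.12 (limma adjusted p = 0.000707). Mafg had 710, 626, 512 and 815 after cadmium, against 438, 267, 280 and 282 in controls. It was also higher in every cadmium culture than in any control, with a log2 change of 1.08 ± 0.15 (limma adjusted p = 0.00483); a second, dimmer probe set gave 1.91 ± 0.23, with a mean control signal of 112, below the filter level. Nfe2l2 itself was lower in 4 of 4 rats, at 2356, 2572, 2694 and 2025 after cadmium, against 3150, 3397, 4113 and 4446 in controls. Its log2 change was -0.64 ± 0.12 (limma adjusted p = 0.0233), and leaving out rat 1, 2 or 3 ended the call (adjusted p = 0.0514, 0.0680 and 0.0880). Bach1, which represses Hmox1, is not read under its symbol here.

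None of 6 tested genes of iron uptake and release passed, none at an unadjusted p under 0.05 in the limma fit. Over all tested probe sets 5.15% passed the adjusted threshold, a share to hold beside each list of this paragraph. Lcn2, a binder of iron-loaded siderophores, averaged 17024 ± 2958 after cadmium and 17814 ± 4277 in controls (log2 change -0.05 ± 0.07; limma adjusted p = 0.706), and the ferroxidase Cp 7254 ± 273 after cadmium and 6517 ± 319 in controls (0.15 ± 0.07; limma adjusted p = 0.281). The other Cp probe sets pointed the other way: a bright one had -0.06 ± 0.18 (limma adjusted p = 0.885) and a dim one -0.64 ± 0.16 (limma adjusted p = 0.0612). None of 8 genes of iron sensing and ferritin turnover passed, and 1 was higher (Pcbp1) and 1 lower (Fbxl5) at an unadjusted p under 0.05, against 7.42% and 13.0% over all probe sets. Fbxl5, an iron-sensing ubiquitin ligase subunit named after its values were seen, had a log2 change of -0.42 ± 0.12 (limma adjusted p = 0.0792) and was lower in 4 of 4 rats. Skp1, a ubiquitin ligase subunit, had a log2 change of -0.15 ± 0.07 (limma adjusted p = 0.316). Pcbp1, an iron chaperone that loads ferritin, had 0.23 ± 0.07 (limma adjusted p = 0.108), with values of 0.21 to 0.24 in the 4 rats. None of 11 genes of iron-sulphur cluster assembly passed, at either threshold; Iscu, the scaffold protein, had -0.11 ± 0.12 (limma adjusted p = 0.670) and the mitochondrial chaperone Hspa9 0.13 ± 0.07 (limma adjusted p = 0.365).

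Of 11 tested genes of hepcidin control, 1 rose and 1 fell, both transducers of BMP signals. Over all tested probe sets 2.86% were higher and 2.29% lower. At an unadjusted p under 0.05 in the limma fit, the list again held 1 higher and 1 lower. Smad1 had 1030, 1296, 1013 and 1389 after cadmium in rats 1 to 4, against 776, 759, 718 and 714 in controls. All cadmium cultures were above all controls, and the log2 change was 0.66 ± 0.12 (limma adjusted p = 0.0153). It did not pass without rat 2 (adjusted p = 0.0957), and a dimmer Smad1 probe set had a log2 change of 0.83 ± 0.37 (limma adjusted p = 0.254). Smad5 had 150, 271, 242 and 218 after cadmium, against 325, 393, 368 and 451 in controls. All cadmium cultures were below all controls on this probe set, and the log2 change was -0.83 ± 0.15 (limma adjusted p = 0.0187). A pair of other Smad5 probe sets gave log2 changes of 0.24 ± 0.19 and 0.18 ± 0.24, in the other direction, and the call ended without rat 1, 2 or 3 (adjusted p = 0.0801, 0.0562 and 0.0523). Over the 66 tested genes of all these lists, 3 passed as higher and 3 as lower, Abcc3 among them, and the median log2 change was -0.07. At an unadjusted p under 0.05 in the limma fit, 5 were higher and 5 lower (7.58% each). The shares over all tested probe sets were 7.42% higher and 13.0% lower.

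**Figure D3:**
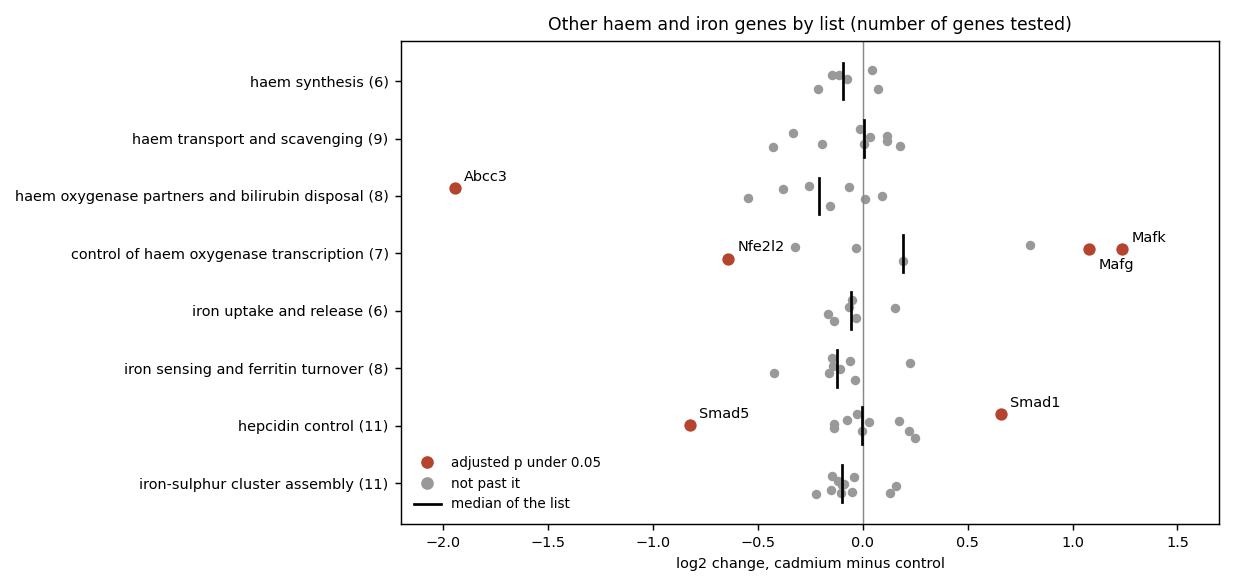
Log2 change (cadmium minus control) of 66 other haem and iron genes, 1 point per gene on its brightest probe set, by list; black bars are list medians. The red points past the adjusted threshold are Mafk, Mafg and Smad1 to the right and Abcc3, Smad5 and Nfe2l2 to the left.

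Genes whose 8 values lay nearest to those of Hmox1, after each gene was centred on its own mean, were Dnajb1, Egr1, Zfand2a, Hspa1a and Atf3, out of 7092 genes compared. Their distances on the log2 scale were 1.05, 1.16, 1.62, 1.75 and 1.89 in that order. The measure mostly follows the shared step between 4 cadmium and 4 control arrays and is given as a description. Dnajb1 and Hspa1a encode heat shock chaperones: Dnajb1 averaged 20599 ± 1773 after cadmium and 892 ± 218 in controls, and Hspa1a 24762 ± 2726 after cadmium and 416 ± 111 in controls (mean ± SD, n = 4 each). Egr1 and Atf3 encode transcription factors of the early stress response: Egr1 averaged 12988 ± 1790 after cadmium and 257 ± 47.7 in controls, and Atf3 7111 ± 930 after cadmium and 507 ± 127 in controls. Zfand2a, a zinc finger protein known to be induced by arsenite, averaged 18155 ± 2343 after cadmium and 1175 ± 354 in controls. The rat with the smallest rise was not the same for all: it was rat 3 for Hmox1, Egr1 (5.20) and Atf3 (3.58), rat 4 for Dnajb1 (4.01) and rat 1 for Zfand2a (3.30) and Hspa1a (5.29), values being log2 changes.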

How the data were processed

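Each deposited value is a linear intensity, made with MAS5 (no version stated) per the submitters' processing notes. No source used here names a scaling target, and detection calls were not used; the mean without the extreme 2% at each end was about 500 on every array. Array settings, deposited as other text values, were used only for chip lot, scan day and module. 

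Control probe sets (57) were left out. Symbols come from the platform annotation, updated by gene number to RefSeq (GRCr8): 12783 of 15866 probe sets had 1 symbol, 312 several and 2771 none here. Signals were analysed as log2(signal + 1). So small an offset shrinks changes of dim genes little: Abcc3 had a log2 change of -1.94 with it and -1.53 with a pseudocount of 32. The dimmest 40% by mean signal were left out, leaving 9519. Limma 3.58.1 (R 4.3.3) was fitted with a variance trend and the rat as a block, with two-sided p-values adjusted (Benjamini-Hochberg) across the 9519 probe sets and a threshold of 0.05. The brightest probe set stood for a gene outside the members. Both cultures of a number come from 1 rat, per the labels. Their deviations from group means correlated at 0.196 to 0.475, against at most -0.008 between rats. Deviations within a group cancel out in sum, so positive values within rats pull those between rats down. Both arrays of a rat also shared a scan day and a chip lot, which cannot be told apart from the rat here. The number of arrays limits the precision.

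The fitting code was tested on simulated data. With the rat as block it recovered 16% of log2 changes of 0.5, 68% of changes of 1 and 96% of changes of 2. A small change that did not pass is therefore not shown to be absent. Named were all members, up to 4 called genes of each list moved alike in 4 of 4 rats (or the 2 brightest), Nfe2l2, Bach1, and the 5 genes nearest to Hmox1; genes outside this rule are marked. Members and lists were chosen with earlier results of these data known. Alternatives were no block, a pseudocount of 32, no filter or 60%, quantile normalization, median centring, no variance trend, chip lot as block or alone, a threshold of 0.1, averaging probe sets per gene, and rats or arrays left out.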

Additional observations from a re-analysis of the deposited data

Results flagged for a closer look

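A gap test within groups of 4, in which chance marks about 1 in 20, marked 8 of 84 groups of values; each ratio below is the gap of the extreme sample over the range of the group. Of the members, only the dimmer Tfrc probe set stood out: control rat 2 stood low (270, against 387 to 405; ratio 0.891) and rat 1 had a log2 change of -0.32, against 0.24 to 0.26 in the others (0.979). Among other genes, the log2 change of Alad was 0.36 in rat 3, against -0.33 to -0.45 in the others (0.845). In control arrays rat 2 stood low for Abcc3 (0.856), rat 1 stood high for Mafg (0.886), and rat 4 stood high for Skp1 (0.896). Rat 1 stood high for Hspa9 in cadmium arrays (0.843) and in control arrays (0.981).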

How the results depend on the processing

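Over 22 alternative fits the Hmox1 log2 change stayed between 4.79 and 5.12 and passed in all of them. Without the replicate block the count of member probe sets called stayed at 2, and of lower calls among all probe sets was 136. Of the results for single genes, 522 kept direction and side of the threshold, 53 no longer passed, 2 newly passed and 36 changed sign; the cause was not tested. All sign changes were in values that did not pass: with quantile normalization Blvra 0.0679, Ftl1 -0.0062 and Hp -0.0182; with each array centred on its median Blvra 0.0648, Urod 0.0023, Hpx 0.0645 and Lcn2 0.0256; within chip lot 1 Tfrc (brighter probe set) -0.0127; within lot 2 Blvra 0.0585, Ftl1 -0.0151, Tfrc (dimmer) -0.0291, Slc40a1 (dimmest) -0.0018, Hpx 0.0435, Lcn2 0.0013 and Iscu 0.0054. With a rat or array left out, the log2 change lay between -0.15 and 0.20 for Blvra, -0.11 and 0.16 for the brighter Tfrc probe set, -0.0252 and 0.25 for the dimmer one, -0.23 and 0.83 for Hamp, -0.058 and 0.0437 for Hpx, -0.0223 and 0.10 for Hp, -0.16 and 0.10 for Lcn2, and -0.19 and 0.0516 for Iscu.

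Member calls numbered 1 within lot 1, and 1 to 3 with a rat or array left out. The 6 pathway gene calls numbered 3 without the variance trend, 0 within lot 1, 3 within lot 2 and 2 to 6 with a rat or array left out. All calls, 490 (272 higher, 218 lower), numbered 313 (113 lower) without the filter, 261 (156 higher, 105 lower) without the variance trend, 87 (77 higher, 10 lower) within lot 1, 296 (112 lower) within lot 2 and 845 (458 lower) at a threshold of 0.1; centring on the median gave 119 lower and a share of higher calls of 75.5%, against 55.5%, and quantile normalization 63.8%. With a rat or array left out they numbered 165 to 599, with 121 to 309 higher and 44 to 290 lower. Centring removes a shift of -0.08 (log2) in the array medians; Pcbp1 then passed (0.30, adjusted p = 0.0467). Each chip lot holds 2 rats and so fewer samples. A dim signal such as that of Abcc3 after cadmium has no detection call here.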
